A study of Homo sapiens with 6 samples.

Results

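The genes of 8 integrin subunits were examined for open chromatin in H1155 cells, an established human line of lung carcinoma, with and without expression of a chimera. They are ITGB5, ITGAV, ITGB1, ITGA2, ITGA3, ITGA5, ITGA6 and ITGB8, each taken as its gene span with 50 kb on either side. Chromatin was profiled by ATAC-seq (Omni-ATAC), in which a transposase cuts open DNA, in 3 libraries of chimera-expressing cells, which the sample titles call TA, and 3 libraries of control cells. Both groups are the same cell line. The labels state neither what the chimera or TA is, nor how it was brought in, nor whether either group is a clone. The replicates are biological triplicates per the labels, with no word on separate cultures, so p-values measure the spread between these libraries.

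Each library has its own list of MACS2 peaks, with 94500 to 99675 peaks in the chimera libraries and 85745 to 109339 in the control libraries. Control replicate 2 had the fewest peaks and control replicate 3 the most. Peaks of the 6 lists that shared at least 1 bp were merged, which gave 149765 regions, and 111 of them overlapped the 8 windows. The windows are stated on hg19. Those of the beta subunits are ITGB5 at chr3:124432000-124656000, ITGB1 at chr10:33139000-33297000 and ITGB8 at chr7:20321000-20505000. Those of the vitronectin, collagen and fibronectin receptor alpha subunits are ITGAV at chr2:187405000-187596000, ITGA2 at chr5:52235000-52441000 and ITGA5 at chr12:54739000-54863000, and those of the laminin-binding alpha subunits are ITGA3 at chr17:48083000-48218000 and ITGA6 at chr2:173242000-173421000. A region called in all 6 libraries had a summit within 2 kb of the gene start in 7 of 8 windows on that build, against 0 of 8 at the starts of the GRCh38.p14 gene table. Region positions below are those of the deposited lists, counted from 1. A gene start is known to 1 kb, and exons and introns were not assigned. Cell type markers outside the windows were not looked up, for want of an annotation of that build.

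Integrins are receptors of the cell surface, each a pair of an alpha and a beta subunit, that bind extracellular matrix outside the cell and couple to the actin cytoskeleton inside. The subunits determine the ligand. ITGAV pairs with ITGB5, ITGB8 or ITGB1 and binds matrix proteins with an RGD motif, such as vitronectin, or the latent form of TGF-beta. ITGA5 with ITGB1 is the classical fibronectin receptor, ITGA2 with ITGB1 binds collagen, and ITGA3 or ITGA6 with ITGB1 bind laminins of the epithelial basement membrane. Several integrin genes are known targets of the YAP and TEAD transcription factors.

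The promoter sequences of ITGA5, ITGB5 and ITGB1 are shown because the ITGA5 start is the one not called in every library, ITGB1 is the other gene with the TEAD motif, and ITGB5 is the window with more chimera peaks. They are the 250 bases upstream of the start from RefSeq (GRCh38.p14, so their coordinates are not those of the peak lists), with GGAATG, the core of the TEAD motif, in capitals on either strand.
ITGA5 (chr12:54419267-54419516, minus strand): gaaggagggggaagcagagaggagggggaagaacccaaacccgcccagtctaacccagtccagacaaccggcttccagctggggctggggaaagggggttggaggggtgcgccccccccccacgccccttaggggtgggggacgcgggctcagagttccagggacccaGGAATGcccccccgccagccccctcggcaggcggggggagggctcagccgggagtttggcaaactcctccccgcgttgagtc
ITGB5 (chr3:124887366-124887615, minus strand): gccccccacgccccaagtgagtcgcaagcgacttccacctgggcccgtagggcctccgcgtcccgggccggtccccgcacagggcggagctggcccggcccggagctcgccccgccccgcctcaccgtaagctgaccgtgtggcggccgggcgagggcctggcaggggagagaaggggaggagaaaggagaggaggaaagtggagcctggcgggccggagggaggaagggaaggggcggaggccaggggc
ITGB1 (chr10:32958231-32958480, minus strand): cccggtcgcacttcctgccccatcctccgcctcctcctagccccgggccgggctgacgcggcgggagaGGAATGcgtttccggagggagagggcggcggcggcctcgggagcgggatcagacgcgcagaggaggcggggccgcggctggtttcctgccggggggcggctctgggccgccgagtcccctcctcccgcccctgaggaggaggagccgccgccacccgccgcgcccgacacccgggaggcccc
RefSeq promoters were matched for 7 of the 8 genes, all but ITGA3. ITGB5 had 3 promoters, and ITGAV, ITGB1 and ITGA6 had 2 each. Only the 1 whose start best fit the length of the gene span was searched, while the shares of all promoters count every one. GGAATG, searched on both strands, occurred in the 250 upstream bases of 2 of these 7, ITGA5 (82 bases before the start) and ITGB1 (182 bases before it). Of all 35116 RefSeq promoters 11.9% held it in those bases. The AP-1 motif TGANTCA, which reads the same on both strands, was in 0 of 7 upstream stretches, where 6.57% of all promoters hold it. In ITGA5 1 TGANTCA spanned the start itself. The E-box CAGCTG was found upstream of ITGA5 and ITGA6 (2 of 7, against 13.985% of all) and GGGCGG, bound by SP factors, upstream of 5 of 7 (42.6% of all). GGAATG shared no base with another of these motifs in ITGA5 or ITGB1. A match describes letters only.

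Most integrin gene starts were open in both states. The region at the start was called in all 6 libraries for 7 of the 8 genes, and ITGA5 was the exception. Deposited fold, the authors' ratio of the summit pileup to the library's own local background, was highest at the start of ITGAV (chr2:187454346-187455460), the alpha subunit shared by several matrix receptors. It was 11.995, 10.8 and 12.8 in chimera replicates 1, 2 and 3, against 12.05, 10.8 and 13.8 in control replicates 1, 2 and 3. These values overlap closely and lay at the 90.5th to 97.1st percentile of their own lists. ITGA2 (chr5:52284714-52285923), the collagen receptor subunit, had start folds of 8.997, 8.53 and 10.4 in chimera and 8.90, 8.28 and 10.2 in control libraries. ITGA6 (chr2:173291778-173293196), a laminin receptor subunit, had start folds of 7.12, 8.41 and 7.40 in chimera and 7.87, 6.62 and 8.15 in control libraries. In both genes the ranges of deposited fold overlap, and at the ITGA6 start every chimera library lay above every control library once folds were centred as described below.

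ITGB8 (chr7:20369242-20370930), the beta subunit known for activating latent TGF-beta, had its nearest region upstream of the stated start, with a summit 1542 bp away and folds of 7.05, 9.96 and 7.73 in chimera and 8.24, 7.94 and 7.94 in control libraries. The start of ITGA3 (chr17:48132893-48134143), the other laminin receptor subunit, had lower folds that differed little between libraries, at 5.78, 6.46 and 5.73 in chimera and 5.79, 5.96 and 5.72 in control libraries. The order of start folds by mean over the 6 libraries was ITGAV (12.05), ITGB1 (9.67), ITGA2 (9.22), ITGB8 (8.15), ITGA6 (7.60), ITGB5 (6.82) and ITGA3 (5.91). The ranges of each pair of neighbours in this order overlap. Both regions of a pair come from the same 6 libraries, and their difference within libraries was not tested.

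**Figure D1:**
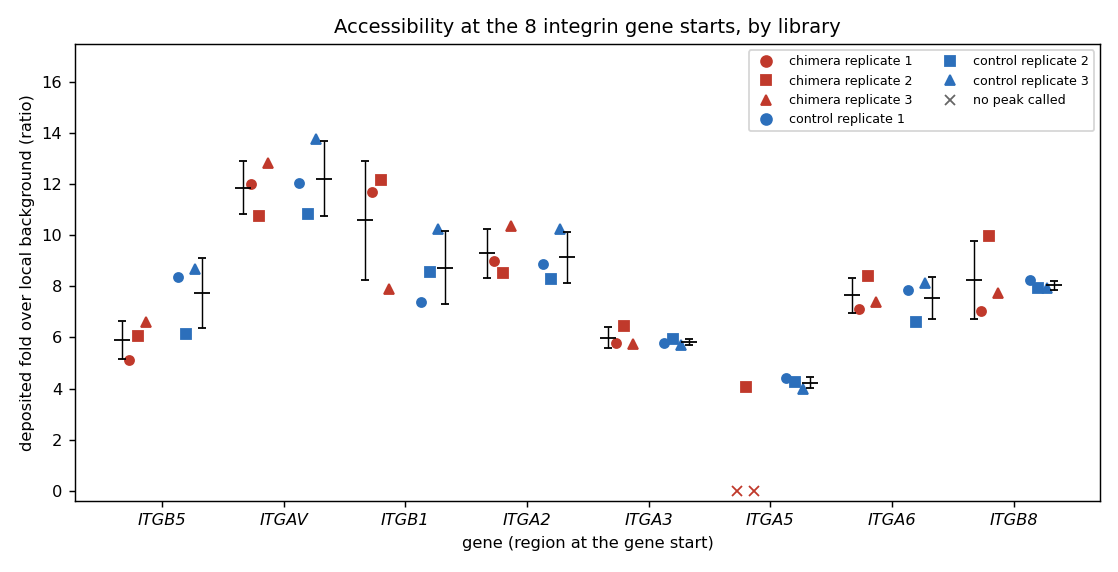
Deposited fold (y axis, ratio) of the region at each gene start (x axis), 1 point per library, chimera left and control right, black bars mean and SD where all 3 libraries had a peak, crosses no peak and no value. The ITGA5 start has a peak in 1 of 3 chimera and 3 of 3 control libraries, and the other seven starts have one in every library.

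The start of ITGA5, the alpha subunit of the fibronectin receptor, had a peak in fewer chimera than control libraries. The region at chr12:54812432-54813843 held a peak in 1 of 3 chimera libraries, replicate 2 with a fold of 4.05, and in all 3 control libraries, with folds of 4.43, 4.26 and 3.996. A second region, with its summit 1424 bp upstream at chr12:54814285-54814821, had a peak in another single chimera library, replicate 3 with a fold of 3.39, and in all 3 control libraries, with folds of 3.27, 2.90 and 3.88. No chimera library had a peak in both regions, and every control library did. At the start, summit pileup, recovered from the deposited fold and p as a count of overlapping reads or fragments, was 30 in chimera replicate 2 and 37, 38 and 42 in the control libraries. The single chimera pileup lies below the 3 control pileups, while its fold of 4.05 lies within the control range. Those peaks lay at the 24.9th percentile of fold in chimera replicate 2 and at the 22.1st to 30.9th percentile in the control lists, so all were among the weaker peaks. Chimera replicate 2 held the only chimera peak at the start, so leaving it out makes the region control-only by construction and adds no support. Presence in 1 of 3 against 3 of 3 cannot pass a test at this number of libraries. A region 14.63 kb into ITGA5 had the opposite pattern, with a peak in 3 chimera libraries and 1 control library. The 9 regions of the ITGA5 window called in all 6 libraries had fold differences between -0.25 and 0.26 on the log2 scale (chimera minus control, centred as given below), with 0 of 9 past the test.

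Over all 8 windows 3 regions were called in every chimera library and no control library, and 1 in every control library and no chimera library. These are 2.70% and 0.901% of the 111 regions. Over all 149765 regions the shares were 0.621% and 0.799%. With 3 libraries against 3, Fisher's exact test of presence cannot give a p below 0.1, so no single region was tested. All 4 lay inside a gene span and away from its start.

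Of the 3 regions called in chimera libraries alone, 2 lay in ITGB5, the beta subunit that forms the vitronectin receptor with ITGAV. One, at chr3:124516349-124516698, lay 89.5 kb into the gene, with folds of 4.05, 3.55 and 5.06 and summit pileups of 33, 22 and 47 in chimera replicates 1, 2 and 3. The other, at chr3:124494688-124495006, lay 111 kb into the gene, with folds of 2.61, 3.57 and 3.23 and pileups of 18, 20 and 25. No control library had a peak in either. The second is the weaker, at the 1.47th, 13.7th and 11.8th percentile of fold in the chimera lists, against the 29.5th, 13.3rd and 51.7th for the first. Both lie close to regions called in all 6 libraries, 2538 bp and 3008 bp away.

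The third was in ITGB8, at chr7:20443075-20443322, 72.2 kb into the gene and with 28633 bp to the closest region shared by all 6 libraries. Its folds were 5.38, 4.55 and 5.36 and its summit pileups 23, 16 and 26 in chimera replicates 1, 2 and 3, at the 34.8th to 55.6th percentile of fold in the lists. No control library had a peak there. The lowest summit pileup called anywhere was 10, 10 and 11 in control replicates 1, 2 and 3, so absence of a peak does not show absence of signal.

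The region called in control libraries alone was in ITGB1, the beta subunit common to the fibronectin, collagen and laminin receptors. It lay 19.4 kb into the gene at chr10:33227484-33227968, with no peak in the chimera libraries and folds of 3.68, 4.57 and 4.45 in control replicates 1, 2 and 3. Summit pileups were 12, 17 and 17 in the control libraries, against a lowest called pileup of 10, 9 and 12 in chimera replicates 1, 2 and 3. These counts are near the calling limit. The region was not called in all 3 control libraries once peaks needed a −log10 q of at least 5 or lists were set to equal length.

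**Figure D2:**
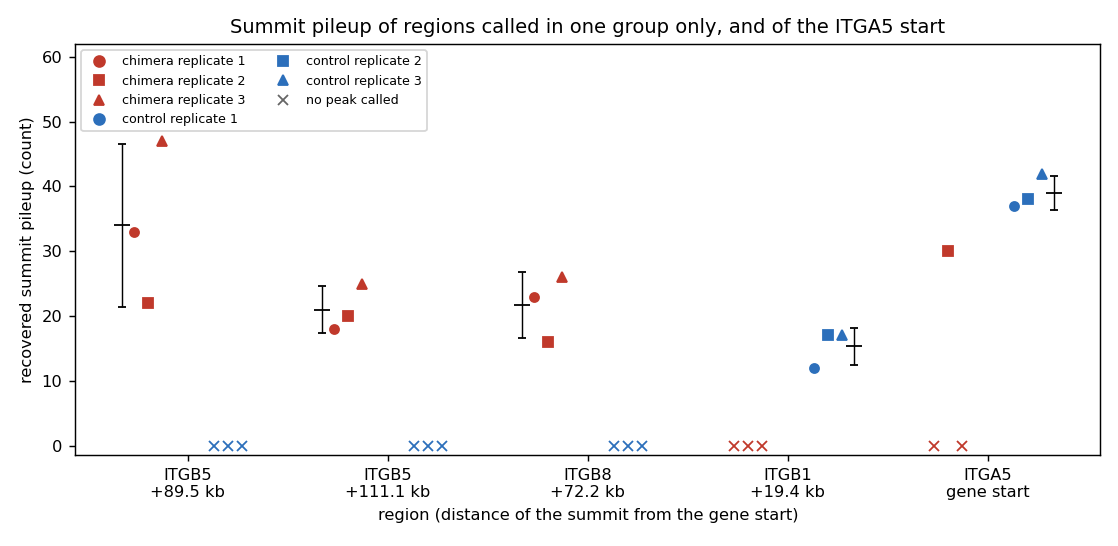
Recovered summit pileup (y axis, count) of the 4 regions called in one group only and of the ITGA5 start (x axis, with the distance of the summit from the gene start), 1 point per library, chimera left and control right, black bars mean and SD, crosses at the bottom no peak and no value. The 3 regions of ITGB5 and ITGB8 have 16 to 47 in chimera libraries and no control peak, and the ITGB1 region has 12 to 17 in control libraries and no chimera peak.

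ITGB5 was also the window with more peaks in every chimera library. It held 19, 19 and 19 peaks in chimera replicates 1, 2 and 3, against 13, 15 and 14 in control replicates 1, 2 and 3 (means 19.0 ± 0 and 14.0 ± 1.0, SD, n = 3 each). The groups do not overlap, and the exact permutation test, two-sided, gave p = 0.1, the smallest that 3 against 3 allows. It was the 1 of 8 windows with more peaks in every chimera library, and 0 of 8 had fewer in every one. Among 13820 tiles of 200 kb with a peak, 2.71% had more and 2.6% fewer. The tiles held a median of 5.17 peaks (mean over libraries), fewer than the ITGB5 window, and small counts tie more often. These shares are therefore not matched to a window with as many peaks as ITGB5. Counted as merged regions, the ITGB5 window had 17, 16 and 17 in chimera and 11, 13 and 14 in control libraries.

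Most ITGB5 regions, 17 of 24, overlapped the gene span, so no location is read from the higher counts. Regions overlapping the gene span numbered 12, 11 and 11 in chimera and 7, 10 and 8 in control libraries, and flanking regions 5, 5 and 6 in chimera and 4, 3 and 6 in control libraries. Single peaks that reach into the gene span itself numbered 13, 14 and 12 in chimera and 9, 12 and 8 in control libraries, so that chimera replicate 3 and control replicate 2 tied. Of the 24 ITGB5 regions, 9 were called in all 6 libraries, 7 in chimera libraries alone (5 of them in a single library) and 2 in control libraries alone. The share of all regions with a peak in any number of libraries of only one group was not computed. The 7 against 2 is therefore a description and not a result about ITGB5. A region 1.48 kb into ITGB5 had a peak in 3 chimera libraries, with folds of 3.59, 3.64 and 4.11, and in 1 control library, replicate 2 with 4.03. A region 116.28 kb into the gene had the opposite pattern, with 1 chimera library and 3 control libraries. The covered length overlapped between groups, at 8105, 7625 and 8125 bp in chimera and 6348, 6183 and 7926 bp in control libraries (exact permutation, two-sided, p = 0.2).

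ITGB1 showed the fewest regions of the 8 windows and a lower covered length. Peaks covered 1746, 2033 and 1918 bp in chimera and 2650, 2266 and 3317 bp in control libraries, which do not overlap (exact permutation, two-sided, p = 0.1, the smallest possible). Covered length was lower in every chimera library in this 1 of 8 windows and higher in 0 of 8, against 4.38% and 3.99% of the 200 kb tiles. Its number of peaks did overlap, at 5, 6 and 4 in chimera and 4, 5 and 7 in control libraries. Within the gene span itself no peak was called in the chimera libraries, against 1, 1 and 2 in the control libraries, while the start region lay just outside the stated span. The control peaks are those of the control-only region above and of a region of control replicate 3 alone. How often gene spans elsewhere have such counts was not computed, so they only describe this window. ITGB8 had 7, 5 and 9 peaks in chimera and 3, 4 and 5 in control libraries (exact permutation, two-sided, p = 0.2). The ranges of ITGB8 meet at 5, and 8 of its 13 regions were called in a single library. For the other five windows this p was 0.4 to 1.

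**Figure D3:**
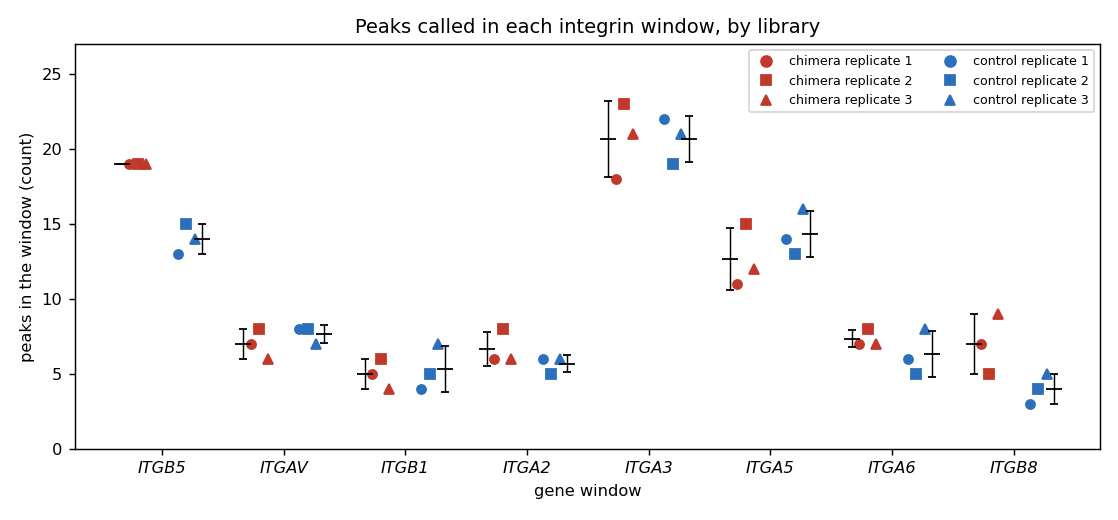
Number of peaks (y axis) in each of the 8 gene windows (x axis), 1 point per library, chimera left and control right, black bars mean and SD. ITGB5 has 19 peaks in each chimera library and 13 to 15 in the control libraries, and the other seven windows have overlapping ranges.

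The windows differed in density more than the groups did. ITGA3 held 25 regions, 18.5 per 100 kb, ITGA5 13.7 per 100 kb and ITGB5 10.7 per 100 kb, against 3.16 per 100 kb for ITGB1 and 4.37 for ITGA2. Of the 111 regions 48 (43.2%) were called in all 6 libraries, against 37.8% of all regions, and 28 (25.2%) in 1 library, against 29.7% of all. The start regions called in all 6 were wide, with a median of 1251 bp against 668 bp for the other regions called in all 6. Regions of a single library had a median of 209.5 bp. A merged region spans all its peaks, so width rises with the number of libraries by construction. Over the whole series the medians were 739 bp for regions called in all 6 and 220 bp for those of a single library. Of the 111 regions 54 overlapped a gene span. The flanks can hold regions of neighbouring genes. In order of start coordinate, the next protein-coding genes in the GRCh38.p14 table are UMPS and MUC13 beside ITGB5, PELO and MOCS2 beside ITGA2, CCDC7 and NRP1 beside ITGB1, ZNF385A and GTSF1 beside ITGA5, DLX3 and PDK2 beside ITGA3, and DLX2 and PDK1 beside ITGA6. This order goes by starts only, so a longer gene that starts farther away can end nearer or inside a window without being listed.

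Presence was partial in many integrin regions. There were 21 regions called in 4 or 5 libraries (18.9% of the 111, against 14.4% of all regions). More chimera than control libraries had a peak in 9 (8.11%, against 5.57% of all regions), and fewer in 6 (5.41%, against 5.34% of all regions). In 12 of the 21 control replicate 2, which had the shortest list, was without a peak (10.8% of the 111, against 7.03% of all regions). In ITGA2 these included regions 19.7 kb and 41.9 kb into the gene, each called in 3 chimera libraries and 2 control libraries. In ITGA6 they included regions 14.97 kb and 34.95 kb into the gene, each also in 3 and 2. Regions called in a single library numbered 5, 5 and 7 in chimera replicates 1, 2 and 3 and 1, 4 and 6 in control replicates 1, 2 and 3. The split of such regions by library over the whole series was not computed, so these counts are a description only.

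**Figure D4:**
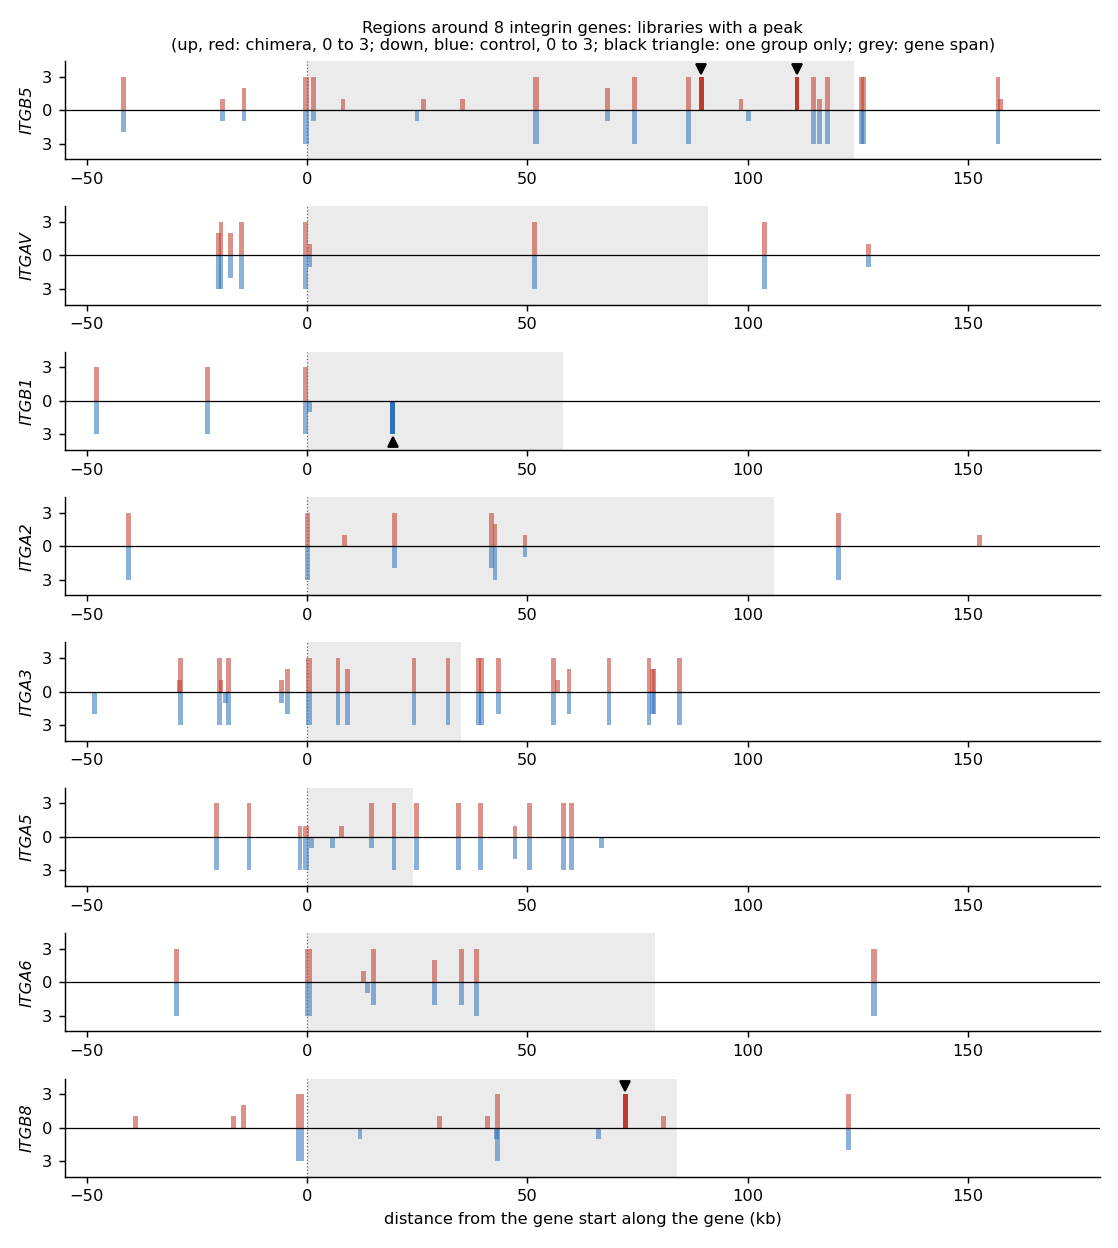
Regions of the 8 windows by distance of the summit from the gene start along the gene (x axis, kb, grey the gene span), with the number of libraries that have a peak (y axis) for chimera upward and control downward. Black triangles mark the 2 ITGB5 regions and the 1 ITGB8 region found in all chimera and no control libraries, and the 1 ITGB1 region of the opposite kind; bars narrower than 1.1 kb are drawn at that width.

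For the 48 integrin regions called in all 6 libraries the fold could be compared directly. Log2 fold was centred in each library on the median of the 56679 regions called in all 6, since deposited fold differed between libraries, and limma was fitted over all of them. None of the 48 passed an adjusted p of 0.05 (limma, Benjamini-Hochberg over 56679 regions). The lowest adjusted p among them was 0.18. Of all 56679 regions, 0.00706% passed with chimera higher and 0.00353% with chimera lower. At an unadjusted p under 0.05 there were 5 of 48 higher and 2 of 48 lower, together 14.6%, against 11.3% of all regions. The median difference was 0.07 over the 48 regions and 0.03 over all.

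The difference with the lowest p was 120.6 kb past the ITGA2 start, on the MOCS2 side of the gene. Folds at chr5:52405201-52406144 were 14.9, 14.0 and 16.8 in chimera and 13.1, 9.97 and 15.1 in control libraries. After centring every chimera library lay above every control library, with a log2 difference of 0.38 ± 0.11 (SE, adjusted p = 0.18 by limma). This was the only 1 of the 3 ITGA2 regions called in all 6 libraries at an unadjusted p under 0.05. The ITGA2 start differed by 0.13 ± 0.14 (SE), with a 95% interval of -0.17 to 0.43.

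The highest log2 difference was upstream of ITGA6, with the summit 29594 bp from the start, at chr2:173262165-173262817. Folds were 9.77, 7.48 and 9.65 in chimera and 6.67, 3.97 and 9.11 in control libraries. The ranges overlap through control replicate 3, and the log2 difference was 0.62 ± 0.20 (SE, adjusted p = 0.23 by limma), or 0.4123 without control replicate 2. On the recovered summit pileup, with 58, 40 and 60 in chimera and 27, 16 and 42 in control libraries, the log2 difference was 1.00 and the adjusted p by limma 0.00501. That pileup is not divided by the local background. It was the only 1 of the 48 regions to pass on that measure. Of all 56585 regions tested on it, 724 passed with chimera higher and 654 with chimera lower, so a pass was far more common than on fold.

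ITGB5 had differences of both signs, none past the test. The region 86.5 kb into the gene, at chr3:124519237-124519997, had folds of 7.30, 6.04 and 5.34 in chimera and 10.7, 8.13 and 10.4 in control libraries. No chimera value reaches a control value, and the log2 difference was -0.54 ± 0.16 (SE, adjusted p = 0.20 by limma). This region lies 2538 bp from the one called in chimera libraries alone at 89.5 kb. Just past the end of the gene, chr3:124479546-124479831 had folds of 6, 6.28 and 6.77 in chimera and 5.08, 4.86 and 5.09 in control libraries, a log2 difference of 0.45 ± 0.17 (SE, adjusted p = 0.32 by limma). Its neighbour at chr3:124479951-124480671 had 4.26, 4.59 and 4.97 in chimera and 5.98, 5.16 and 7.85 in control libraries, a log2 difference of -0.33 ± 0.17 (SE). The 2 neighbours thus lay on opposite sides, both without overlap between groups.

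The ITGB5 start itself (chr3:124605189-124606638) had folds of 5.10, 6.04 and 6.59 in chimera and 8.35, 6.15 and 8.68 in control libraries. The groups overlap through control replicate 2, and the log2 difference was -0.27 ± 0.16 (SE, 95% interval -0.61 to 0.07, adjusted p = 0.56 by limma). With the peaks of a region summed it was -0.0121. The strongest ITGB5 region, 74.2 kb into the gene, had 9.23, 9.66 and 9.54 in chimera and 12.4, 7.73 and 11.03 in control libraries, a log2 difference of 0.00 ± 0.13 (SE).

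The ITGB1 start (chr10:33247043-33247871) had folds of 11.7, 12.2 and 7.91 in chimera and 7.41, 8.57 and 10.2 in control libraries, a log2 difference of 0.37 ± 0.17 (SE, adjusted p = 0.42 by limma). The ranges overlap through chimera replicate 3, which lies below control replicates 2 and 3. Without control replicate 1 the difference was 0.22. A stronger region upstream, with its summit 22571 bp from the start, had 11.99, 12.2 and 13.4 in chimera and 11.6, 6.28 and 15.1 in control libraries. That control range encloses the chimera values. The log2 difference there was 0.38 ± 0.17 (SE, adjusted p = 0.41 by limma). It was 0.1353 without control replicate 2, 0.5778 without control replicate 3 and 0.1557 on the recovered pileup.

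The strongest regions of the ITGA5, ITGA6 and ITGA3 windows lay in the flanks downstream of the genes. The one of the ITGA5 window, 39.43 kb past the start and on the ZNF385A side, had folds of 10.3, 10.9 and 10.5 in chimera and 11.9, 8.33 and 10.6 in control libraries, a log2 difference of 0.16 ± 0.12 (SE, adjusted p = 0.67 by limma). The one of the ITGA6 window, 128.69 kb past the start, crossed the window edge on the PDK1 side. It had 7.65, 8.85 and 7.83 in chimera and 9.57, 8.04 and 11.2 in control libraries. After centring every chimera library lay below every control library there, with a log2 difference of -0.13 ± 0.13 (SE, adjusted p = 0.78 by limma). The one of the ITGA3 window, 39.6 kb past the start and on the PDK2 side, had 8.75, 9.73 and 10.1 in chimera and 11.3, 9.50 and 11.02 in control libraries, a log2 difference of -0.05 ± 0.13 (SE).

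The remaining largest differences within a window were smaller than those of ITGA6, ITGB5, ITGA2 and ITGB1. For ITGAV it was upstream of the gene, with the summit 19453 bp from the start, and folds were 5.92, 3.27 and 4.58 in chimera and 4.98, 3.29 and 4.31 in control libraries (log2 difference 0.22 ± 0.21, SE, adjusted p = 0.76 by limma). For ITGA5 it was in the downstream flank, 59.96 kb past the start, where folds were 11.2, 9.77 and 9.89 in chimera and 10.8, 7.99 and 9.08 in control libraries (log2 difference 0.26 ± 0.14, SE, adjusted p = 0.50 by limma). For ITGA3 it was upstream, at chr17:48104205-48105307, with folds of 7.56, 8.80 and 7.91 in chimera and 7.86, 4.83 and 9.03 in control libraries (log2 difference 0.31 ± 0.16, SE, adjusted p = 0.49 by limma). The deposited values of these regions overlap between groups, and the ITGA3 region did not overlap after centring. The ITGA3 difference was 0.1593 without control replicate 2, 0.1158 on the recovered pileup and 0.1203 with the peaks of a region summed. The ITGAV difference was -0.0107 without chimera replicate 1 and 0.4821 without chimera replicate 2, and the ITGA5 difference was 0.0966 on the recovered pileup.

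The starts of ITGAV, ITGA3, ITGA6 and ITGB8 differed by 0.07 ± 0.12, 0.15 ± 0.17, 0.13 ± 0.15 and 0.13 ± 0.16 on the log2 scale (SE), and the 95% intervals together ran from -0.21 to 0.51. In ITGAV all 5 regions called in all 6 libraries lay between 0.03 and 0.22 (lowest adjusted p = 0.76 by limma). In ITGA3, 13 regions lay between -0.29 and 0.31. The lowest of them was 32.0 kb into the gene, at chr17:48164767-48165359, with folds of 8.39, 9.03 and 7.98 in chimera and 10.8, 9.59 and 13.3 in control libraries, which do not overlap (adjusted p = 0.40 by limma). Over the 48 regions 4 had every chimera library above every control library after centring and 5 had every one below. These are 8.33% and 10.4%, against 9.5% and 6.99% of all regions.

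**Figure D5:**
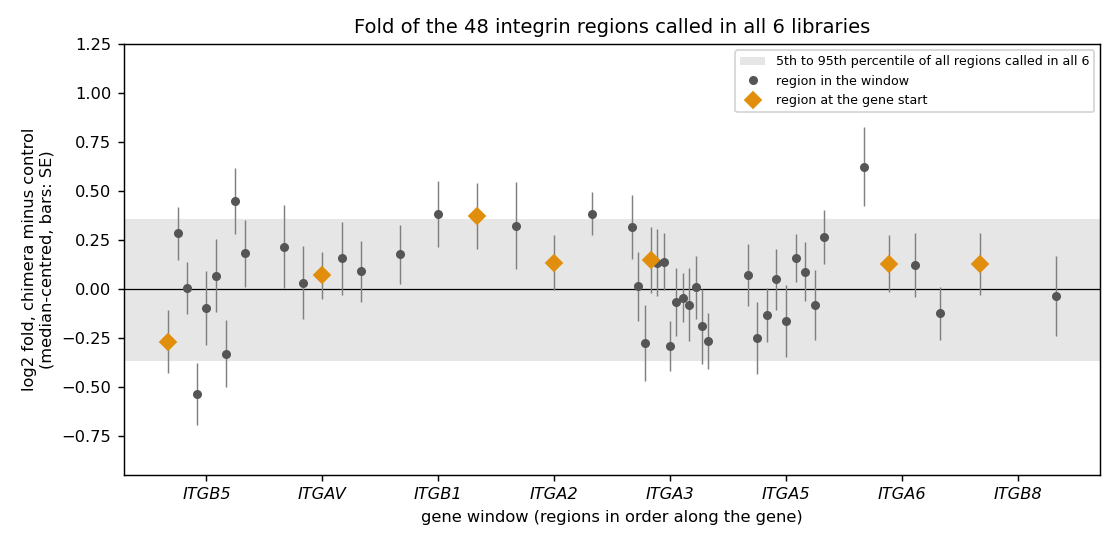
Difference in centred log2 fold, chimera minus control (y axis), of the 48 regions called in all 6 libraries, by gene window in order along the gene (x axis), with SE bars, gene starts as orange diamonds and the 5th to 95th percentile of all 56679 regions shaded. Of the 48 regions 42 lie inside that range, 5 above and 1, in ITGB5, below.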

How the data were processed

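ATAC-seq peak lists of 6 libraries were analysed for the 8 integrin windows. The values are as deposited: column 7 is the authors' fold (a ratio of summit pileup to local background, as MACS2 defines it), and columns 8 and 9 are the authors' −log10 p and −log10 q. The deposited display score and summit offset were not results. Per the file names MACS2 called peaks per library. Caller settings, aligner, read filtering and transposase offset are not stated in the labels or files used here. Per the submitters' processing notes HOMER 4.9 and GRCh38 were named, without a role. The windows are on hg19.

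Chromosomes 1 to 22 and X were used. A library had a region if one of its peaks overlapped it. The strongest peak gave its fold. Windows were taken with 50 kb flanks, and gene starts to 1 kb. Strands came from the RefSeq promoter table, except ITGA3, known to lie on the plus strand. limma 3.58.1 (R 4.3.3, trend) was fitted to log2 fold without a pseudocount, since only regions with a value in all 6 libraries entered. Summit pileups were solved from the deposited fold and −log10 p with the Poisson tail that MACS2 uses (tolerance 0.005), for over 99.9% of peaks. The genome background so recovered was 2.74 to 3.77 in chimera and 2.53 to 3.05 in control libraries and stands in for depth, since read totals were not used here. It gives no error for a region. Merging, recovery and the limma fit were tested on simulated data.

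All 8 genes are named. Named regions are the gene start, the highest mean fold, the largest difference, and any called in one group only or past the test, per window. Others were singled out after their values were seen. Members, lists and tests were chosen with earlier results of these data known. Other integrin and adhesion genes planned for the comparison could not be placed without an annotation of the build. Python 3.11.15, scipy 1.17.1, pandas 2.3.3, numpy 2.4.6 and matplotlib 3.10.9 were used.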

Additional observations from a re-analysis of the deposited data

How the results depend on the processing

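The regions called in chimera libraries alone numbered 2 to 4 in ITGB5, ITGB8 and, without control replicate 3, ITGA5, when 1 library was left out (3 to 4) or another threshold or merging was used, and 6 with the replicate block. The block's 6 are 5.41% of the integrin regions against 4.24% of all, and the 4 at 2 of 3 libraries 3.6% against 2.78%, so these shares lie closer together than 2.7% against 0.621% in the report. Without 1 library they were 2.73% to 3.81% against 0.779% to 1.64%. Leaving out 1 library cannot remove any of the 3 regions, so their staying adds no support. The regions that joined also did so by construction. For ITGA5 (14.63 kb into the gene) and ITGB5 (1.48 kb) the library left out held the only control peak. For the ITGB8 region it was the only chimera library without a peak. Those called in control libraries alone (1) numbered 0 at −log10 q of at least 5 (against 0.948% of all) and 0 with lists of equal length (against 0.838% of all). They numbered 2 at 2 of 3 libraries (1.8%, against 3.85% of all) and 5 with the replicate block (4.5%, against 5.56% of all regions). Without 1 library they numbered 1 to 3 (0.909% to 2.83%, against 1.24% to 2.89% of all). ITGA5 joined without chimera replicate 2 or 3, ITGB5 without chimera replicate 2 and ITGA3 without control replicate 2. These ITGA5 and ITGB5 regions joined by construction, since the library left out held their only chimera peak. The ITGA3 region did too, since control replicate 2 was the only control library without a peak there. The ITGB1 region cannot drop out when 1 library is left out, so its staying adds no support. Windows with more peaks in every chimera library (1, ITGB5) numbered 0 in the gene span alone, 0 for covered length, 2 with the replicate block (ITGB5, ITGB8), and 1 to 3 without 1 library, ITGB5 among them each time. Groups that do not overlap stay apart when 1 library is left out. ITGB5 was therefore among them by construction, which adds no support. Tile shares, other than for covered length, were computed for the main setting only. Windows with fewer (0) numbered 1 (ITGB1) in the gene span alone, for covered length, with peaks up to 1 kb apart merged and counted as regions, the last chosen after seeing the data, and 0 to 1 without 1 library. The fold test called 0 integrin regions in all settings but the recovered pileup, which called 1 of 48 higher (ITGA6, 29594 bp upstream, log2 1.00). On that pileup 724 of all 56585 regions passed higher and 654 lower. No centring gave a median of all regions of -0.08, against 0.03 with centring.

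Of 18 named regions called in all 6, 4 changed sign somewhere. The ITGAV start (0.07) was -0.0394 without centring, -0.2071 on pileup and -0.0063 to 0.1784 without 1 library. The ITGB5 region at 74.2 kb was -0.1051 without centring, -0.0137 with quantile normalization, -0.0372 with summed peaks and -0.0842 to 0.1039 without 1 library. The ITGA5 region at 39.4 kb was -0.1276 with summed peaks, and the ITGAV region 19453 bp upstream -0.0107 to 0.4821 without 1 library. The cause was not tested. Same-numbered libraries did not deviate together (correlations -0.0055, -0.0592 and -0.0145), so the block pairs by number only. A region without a peak can hold signal below that library's threshold.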
